A study of Mus musculus with 4 samples.

Results

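The 48 genes described here encode the machinery of mitosis: cyclins and kinases, the chromosomal passenger complex, kinetochore and checkpoint proteins, kinesin motors, spindle and cytokinesis proteins, and condensin with other chromatin proteins. They were chosen by name and role, with earlier results of these data known. All 48 were found among the 55536 genes of the count table, of which 14259 passed the filter on low counts. The filter kept 47 of the 48, leaving out Knl1. Polyadenylated RNA was sequenced from bulge cells, where hair follicle stem cells reside, in 4 mouse skin samples on a C57BL/6 background, collected at postnatal day 20. The sources used here do not say how the cells were isolated. The 2 knockout samples came from Cdh5CreERT2; Alk1 flox/flox mice, in which tamoxifen-activated Cre under the endothelial Cdh5 promoter deletes Alk1 (Acvrl1), a receptor of BMP9 and BMP10. The 2 control samples came from littermates without Cre; the sources used here do not say whether these carried floxed alleles. All mice of both groups received tamoxifen at postnatal day 17, at 100 µg per g of body weight, so the cells were taken 3 days later. The deletion is aimed at blood vessels and not at the sequenced cells. The question was how losing endothelial Alk1 bears on bulge cells around the age at which follicle stem cells begin to divide. Nothing in the labels says whether a sample was 1 animal or a pool, so p-values reflect only how these samples vary, which may be technical.

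Mitotic genes are transcribed late in the cell cycle, in G2 and mitosis, and are repressed in resting cells. Cyclin B with CDK1 drives entry, kinetochores tie chromosomes to spindle microtubules, the checkpoint delays anaphase until all are attached, and the ubiquitin ligase APC/C with CDC20 then starts anaphase. Kinesins slide and shorten microtubules, condensin compacts the chromosomes, and the spindle midzone places the division furrow. Bulge stem cells are mostly quiescent and divide briefly at the start of hair growth, so a transcript of this kind in bulk RNA reads how many cells cycle as well as how much each makes. In bulk samples fewer dividing cells and less RNA per dividing cell cannot be told apart.

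Promoters of mitotic genes are known for 2 short elements, the CHR (cell cycle genes homology region), bound by the MuvB core of the DREAM and B-MYB complexes, and the CCAAT box, bound by NF-Y. RefSeq windows (GRCm38.p6) of 250 bases before to 50 bases after a start were at hand for 40 of the 48 genes. The 8 with no entry were Aurkb, Ccna2, Cdc25c, Foxm1, Incenp, Kif20a, Smc4 and Tpx2. The CHR was searched as TTTGAA or TTCGAA and the CCAAT box as CCAAT, both on either strand, so that TTCAAA and ATTGG count as matches. The first listed start was taken for the 2 genes with more than 1, Ect2 and Prc1. CHR letters were in 32 of the 40 windows (80%), against 19.2% of all 32851 windows in the table. CCAAT letters were in 29 (72.5%), against 37.4%, and both were in 27 (67.5%), against 7.52%. Among 110 windows of other mitotic genes, 1 per gene, 45.5% held a CHR, 57.3% a CCAAT box and 30% both. In the members' windows 1 CHR match overlapped a CCAAT match. A match describes letters and not binding. The windows of the members of smallest p that hold both elements in the stretch from 170 bases before to 30 after the start are printed 5′ to 3′, with CHR and CCAAT matches in capitals, to show how the elements are spaced.
Top2a (chr11:99024160-99024359, minus strand): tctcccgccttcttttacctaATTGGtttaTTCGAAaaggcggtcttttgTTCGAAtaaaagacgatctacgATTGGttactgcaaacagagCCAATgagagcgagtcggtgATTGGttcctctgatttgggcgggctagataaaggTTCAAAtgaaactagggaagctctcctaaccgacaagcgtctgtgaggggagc
Mki67 (chr7:135716350-135716549, minus strand): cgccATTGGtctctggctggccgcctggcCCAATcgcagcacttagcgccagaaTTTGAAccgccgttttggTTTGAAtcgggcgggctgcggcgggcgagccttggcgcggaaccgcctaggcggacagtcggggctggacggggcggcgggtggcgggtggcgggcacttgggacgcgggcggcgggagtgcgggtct
Kif11 (chr19:37376212-37376411, plus strand): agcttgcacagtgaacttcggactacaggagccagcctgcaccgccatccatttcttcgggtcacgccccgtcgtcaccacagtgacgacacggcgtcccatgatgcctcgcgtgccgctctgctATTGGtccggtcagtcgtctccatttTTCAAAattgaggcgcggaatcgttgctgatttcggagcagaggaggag
Ncapd2 (chr6:125191557-125191756, minus strand): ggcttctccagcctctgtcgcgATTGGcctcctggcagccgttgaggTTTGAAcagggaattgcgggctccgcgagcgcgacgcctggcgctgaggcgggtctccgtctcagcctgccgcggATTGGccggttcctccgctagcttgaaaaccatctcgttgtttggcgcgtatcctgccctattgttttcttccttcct
Cenpf (chr1:189688057-189688256, minus strand): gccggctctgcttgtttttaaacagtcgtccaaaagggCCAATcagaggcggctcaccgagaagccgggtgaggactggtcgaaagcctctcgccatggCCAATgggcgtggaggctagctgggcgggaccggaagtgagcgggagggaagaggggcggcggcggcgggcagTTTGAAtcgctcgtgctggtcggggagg
Ect2 (chr3:27153849-27154048, minus strand): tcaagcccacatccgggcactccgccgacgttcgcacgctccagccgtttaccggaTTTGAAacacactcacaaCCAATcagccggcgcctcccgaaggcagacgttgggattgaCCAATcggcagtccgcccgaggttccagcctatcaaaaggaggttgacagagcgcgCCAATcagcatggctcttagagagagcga
The Top2a stretch held 3 CHR and 4 CCAAT matches, and the Mki67 stretch 2 of each. Kif11 held 1 of each, Ncapd2 and Cenpf 1 CHR and 2 CCAAT matches, and Ect2 1 CHR and 3 CCAAT matches. In Bub1b the CHR matches began 188 bases before the start and at base 41 after it, outside the printed stretch. Of the 3 members with a log2 fold change above 0, the Hmgb2 window held 2 CHR and 4 CCAAT matches, the Kif18a window held neither, and Smc4 had no entry. The 27 tested members with both elements had a median log2 fold change of -0.78, the 2 with a CCAAT box alone -0.95, the 4 with a CHR alone -0.68 and the 6 with neither -0.62.

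Libraries held 22261317 and 21237843 counts in knockouts 1 and 2, against 16326906 and 29130974 in controls 1 and 2. Acvrl1 itself (ENSMUSG00000000530, chromosome 15, 101128522 to 101145336, GRCm38) measured 17.9 and 23.1 CPM in knockouts 1 and 2, against 21.6 and 24.3 CPM in controls 1 and 2 (CPM, counts scaled by effective library size), a log2 fold change of -0.16 ± 0.19 (SE). Its counts cover the whole gene and Cre acts in another cell type, so they do not check the labels. All 15 listed bulge markers passed the filter and none was at 0 in any library, with Krt15, a bulge keratin, at 36017 and 34786 CPM in knockouts 1 and 2, against 29088 and 34397 CPM in controls 1 and 2. Shh and Krt35, genes of the growing hair matrix, had 0 counts in both knockouts and in control 1, and 0.034 and 0.068 CPM in control 2. They belong to a list of 12 hair germ and matrix markers, of which 9 passed the filter. The list summed to 378 and 433 CPM in knockouts 1 and 2, against 383 and 354 CPM in controls 1 and 2. The median log2 fold change of all tested genes was -0.02.

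Mitotic transcripts were scarce in bulge cells of both groups, and most measured lower in knockouts than in controls, although no single member passed the test across all genes. A log2 fold change below 0 was seen in 44 of the 47 (93.6%), against 52.5% of all tested genes. The members' median was -0.78, on a scale where -1 is a halving. Both knockouts lay below both controls for 37 of the 47, against 23.6% of all tested genes, and above both for 2, against 21.3%. In 8 members the groups overlapped. Because the members were chosen with earlier results of these data known, these shares are a description and not a test. No member passed edgeR's quasi-likelihood test at an adjusted p of 0.05 over all genes, where 0% of all tested genes were called lower and 0.00701% higher. The members' adjusted p ran from 0.43 to 0.897. At an unadjusted p under 0.05, 11 members were lower and 0 higher, against 5.94% and 4.8% of all tested genes. DESeq2 called 0 of the 42 members for which it gave an adjusted p, where it called 0.54% of all genes lower and 0.262% higher. By limma-voom 0 of 47 were called, where 0% of all tested genes were called lower and 0.00701% higher. Without a count filter edgeR called 3 members lower, Top2a (adjusted p = 0.00182), Ccna2 (0.0435) and Mki67 (0.0466), where 1.11% of genes were called lower and 0.678% higher. With the replicate number as a block it called 1 member, Top2a, where 0.568% of genes were called lower. Both fits leaned more on variances pooled over genes, which edgeR expresses as prior df. Its median was infinite without a filter and 22.6 with the block, against 4.17 in the fit as reported. Top2a's log2 fold change hardly moved, at -0.967 without a filter and -0.961 with the block, against -0.962 as reported. These calls thus came without a larger difference between the groups. No member was called when at least 50 counts in 2 libraries were asked for, where 0.00856% of genes were called higher. None was called with a library left out, where 0.0421% of genes were called lower without knockout 1, 0.014% were called higher without knockout 2 and 0.014% were called higher without control 1. The median depended on the libraries: it was -0.39 without control 1, with 42 members below 0, and -0.95 without control 2.

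**Figure D1:**
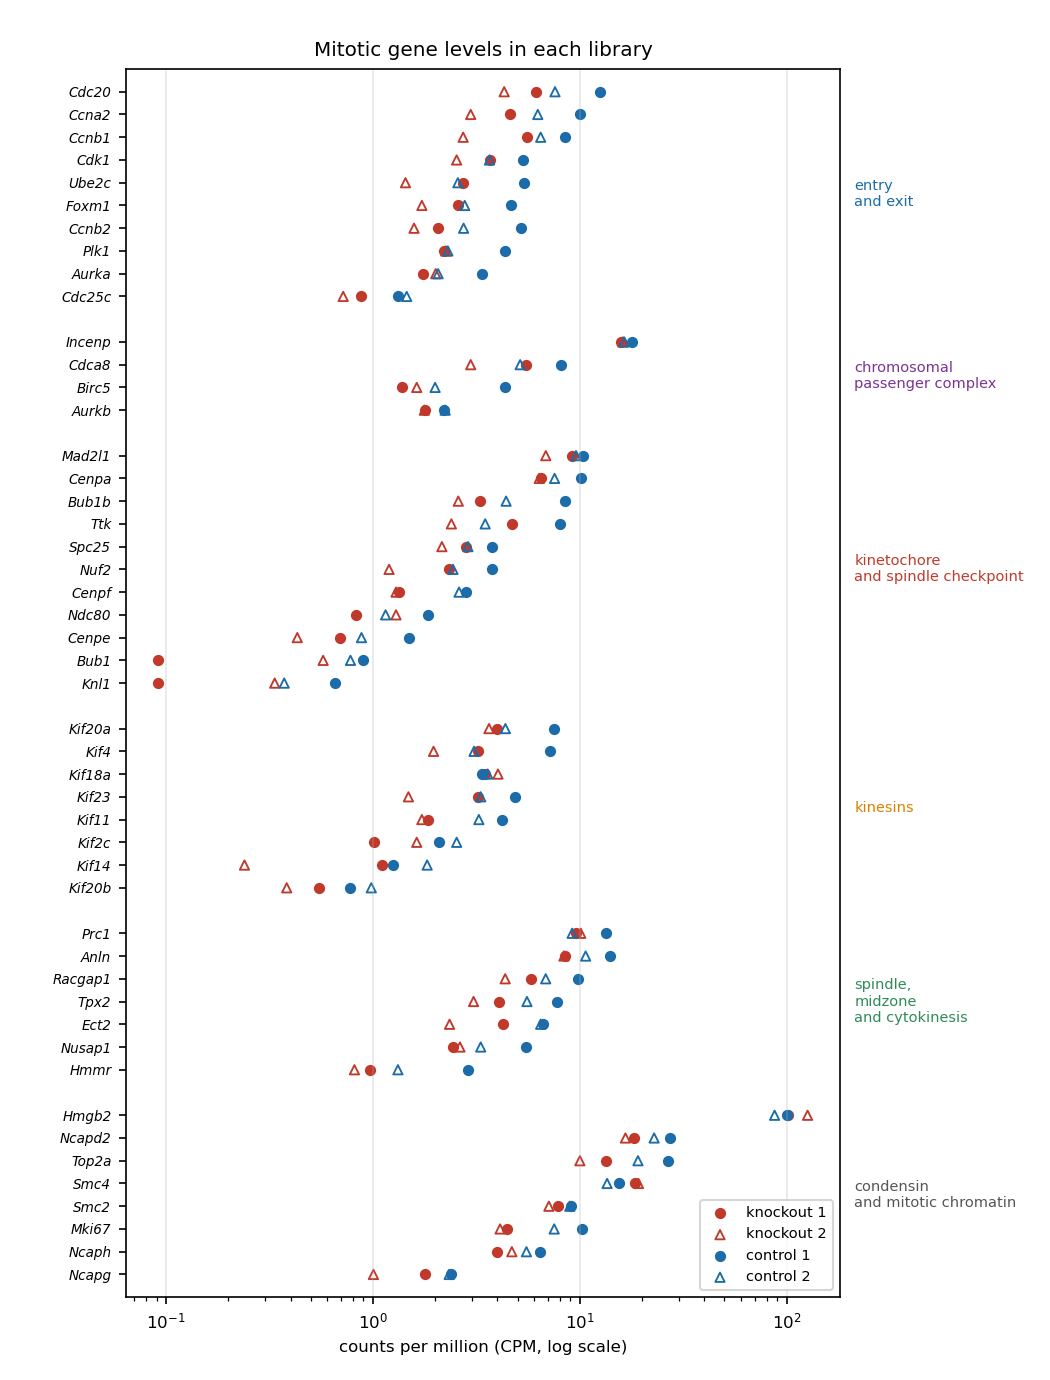
Level of each of the 48 mitotic genes in CPM (log axis) in the 2 knockout libraries (red) and the 2 control libraries (blue), grouped by role and ordered by mean level; circles are replicate 1 and triangles replicate 2. Most genes lie under 10 CPM, control 1 is the highest of the 4 libraries for 39 of the 47 tested members, and Hmgb2 stands alone near 100 CPM.

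Where genes are compared, levels are given per exon length, as RPKM (CPM per kilobase of exon). Summed over the 4 libraries, members had between 31 counts (Knl1) and 9098 counts (Hmgb2), with a median of 322, and the second highest was Ncapd2 with 1878. In knockouts 1 and 2, 32 and 38 of the 48 members had fewer than 100 counts, against 25 and 24 in controls 1 and 2. These tallies are not scaled for depth, which ran from 16326906 counts in control 1 to 29130974 in control 2. No member was at 0 in any library. Per exon length the tested members had a median of 0.916 RPKM, against 4.84 RPKM for all tested genes. The kinesins had a median of 0.388 RPKM. The kinetochore genes had 0.647 RPKM over the 10 tested, or 0.384 RPKM over all 11 with Knl1. The passenger complex had 0.868 RPKM, spindle and cytokinesis genes 0.948 RPKM, cyclin and kinase genes 1.21 RPKM, and condensin and chromatin genes 1.71 RPKM. The error that counting alone would give had a median of 0.457 of the fitted standard error, and was more than 0.5 of it in 15 of the 47 members. Without Hmgb2, which made up 29.97% of the summed level, the other 47 members summed to 211 and 179.8 CPM in knockouts 1 and 2, against 334 and 246 CPM in controls 1 and 2. Both knockouts were thus below both controls in the sum, and control 1 was the highest library.

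The cyclins, kinases and exit factors comprised 10 genes, all tested and all with a log2 fold change below 0, between -1.11 and -0.51. Their median was -0.82, or -0.45 without control 1, and none passed (lowest edgeR adjusted p = 0.43). Both knockouts lay below both controls for 8 of the 10, against 23.6% of all tested genes. Cdc20, the APC/C activator that starts anaphase, was the most abundant at 6.16 and 4.31 CPM in knockouts 1 and 2, against 12.5 and 7.59 CPM in controls 1 and 2. Its log2 fold change was -0.93 ± 0.34 (SE), and the groups did not overlap. Ccna2, cyclin A2 of S phase and G2, measured 4.60 and 2.97 CPM in knockouts 1 and 2, against 9.996 and 6.27 CPM in controls 1 and 2 (log2 fold change -1.09 ± 0.36, SE). Both knockouts were below both controls, and this was the member of smallest p in the group. Ccnb1, cyclin B1, the partner of CDK1 at mitotic entry, measured 5.56 and 2.73 CPM in knockouts 1 and 2, against 8.50 and 6.47 CPM in controls 1 and 2, with a log2 fold change of -0.85 ± 0.39 (SE). Cdk1, the mitotic kinase itself, measured 3.68 and 2.54 CPM in knockouts 1 and 2, against 5.33 and 3.66 CPM in controls 1 and 2, with a log2 fold change of -0.52 ± 0.35 (SE). Knockout 1 was slightly above control 2 for Cdk1, so its groups overlapped, whereas those of Ccnb1 did not. Aurka, a kinase of centrosomes and spindle poles, had the value nearest to 0 in this group, -0.51 ± 0.39 (SE), at 1.75 and 2.01 CPM in knockouts 1 and 2, against 3.35 and 2.07 CPM in controls 1 and 2. Here both knockouts were close to control 2 and only control 1 stood apart. The remaining members were Ccnb2, the phosphatase Cdc25c, Plk1, the APC/C ubiquitin-conjugating enzyme Ube2c and the transcription factor Foxm1. Their log2 fold changes lay between -1.11 (Ccnb2) and -0.56 (Plk1). Cdc25c, the least abundant, had 19 and 15 counts in knockouts against 22 and 43 in controls. That is 0.873 and 0.718 CPM in knockouts 1 and 2, against 1.32 and 1.46 CPM in controls 1 and 2. For Plk1 the knockouts had 2.21 and 2.25 CPM and control 2 had 2.30 CPM, so that the absence of overlap rests on a narrow gap.

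The chromosomal passenger complex, which corrects faulty attachments and then moves to the midzone, consists of the kinase Aurkb, the scaffold Incenp, and Birc5 (survivin) and Cdca8 (borealin), which dock it on chromatin. All 4 were below 0 on the log2 scale (median -0.48), and none passed (lowest edgeR adjusted p = 0.476). Leaving out knockout 2 gave a median of -0.29, and leaving out control 1 gave -0.30. Birc5 measured 1.38 and 1.63 CPM in knockouts 1 and 2, against 4.37 and 2.00 CPM in controls 1 and 2, with a log2 fold change of -1.06 ± 0.47 (SE). Control 1 held more than double the level of control 2, and both knockouts were below control 2; without control 1 the value was -0.41. Cdca8 measured 5.47 and 2.97 CPM in knockouts 1 and 2, against 8.08 and 5.15 CPM in controls 1 and 2 (log2 fold change -0.64 ± 0.40, SE), and its groups overlapped because knockout 1 exceeded control 2. Aurkb measured 1.79 and 1.77 CPM in knockouts 1 and 2, against 2.21 and 2.24 CPM in controls 1 and 2, a log2 fold change of -0.32 ± 0.34 (SE) with close replicates. Incenp was the most abundant, at 15.8 and 16.1 CPM in knockouts 1 and 2, against 17.8 and 16.4 CPM in controls 1 and 2, and its log2 fold change was -0.10 ± 0.17 (SE). All 4 libraries of Incenp were within a narrow band, and per exon length it stood at 3.82 RPKM, against 0.680 RPKM for Aurkb.

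The kinetochore and checkpoint group held 11 genes, of which 10 were tested, all with a log2 fold change below 0. Their median was -0.74, or -0.35 without control 1 with 9 of 10 below 0, and none passed (lowest edgeR adjusted p = 0.43). Cenpf, a large kinetochore corona protein, had the smallest p of the group, with 29 and 27 counts in knockouts 1 and 2, against 47 and 77 in controls 1 and 2. That is 1.33 and 1.29 CPM in knockouts 1 and 2, against 2.81 and 2.61 CPM in controls 1 and 2, a log2 fold change of -1.04 ± 0.34 (SE), with replicates close together in both groups. Bub1b (BUBR1), a checkpoint kinase-like inhibitor of CDC20, measured 3.31 and 2.59 CPM in knockouts 1 and 2, against 8.50 and 4.40 CPM in controls 1 and 2, a log2 fold change of -1.12 ± 0.40 (SE). Here control 1 was nearly double control 2, but both knockouts were still lower. Mad2l1 (MAD2), which also holds CDC20 inactive, had the highest CPM of the group and the value nearest to 0, at 9.19 and 6.85 CPM in knockouts 1 and 2, against 10.4 and 9.58 CPM in controls 1 and 2, with a log2 fold change of -0.32 ± 0.24 (SE). Cenpa, the histone variant that marks centromeres, measured 6.53 and 6.37 CPM in knockouts 1 and 2, against 10.2 and 7.55 CPM in controls 1 and 2, with a log2 fold change of -0.45 ± 0.25 (SE). Ndc80 and Nuf2, which form the microtubule-binding arm of the NDC80 complex together, gave -0.48 and -0.79, and Spc25, of the same complex, -0.41. Ndc80 overlapped between groups, Nuf2 and Spc25 did not. The Ndc80 count per length, relative to that of Nuf2, was 0.345 and 1.06 in knockouts 1 and 2, against 0.481 and 0.461 in controls 1 and 2. Knockout 2 stood apart in that ratio, which was chosen after its values were seen. The checkpoint kinase Ttk gave -0.68, a value that turned to 0.026 without control 1. Both Bub1 and Knl1 had very few counts. Bub1, a checkpoint kinase, had 2 and 12 counts in knockouts 1 and 2, against 15 and 23 in controls 1 and 2, and its log2 fold change of -1.32 ± 0.77 (SE) was the lowest of all members with the widest error. It was -0.53 without knockout 1 and -3.10 without knockout 2. Knl1, the scaffold that recruits BUB1, had 2 and 7 counts in knockouts 1 and 2, against 11 and 11 in controls 1 and 2, and was not tested. Scaled for library size it measured 0.0919 and 0.335 CPM in knockouts 1 and 2, against 0.658 and 0.373 CPM in controls 1 and 2. The kinetochore motor Cenpe had 15 and 9 counts in knockouts 1 and 2, against 25 and 26 in controls 1 and 2, a log2 fold change of -1.05 ± 0.53 (SE).

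**Figure D2:**
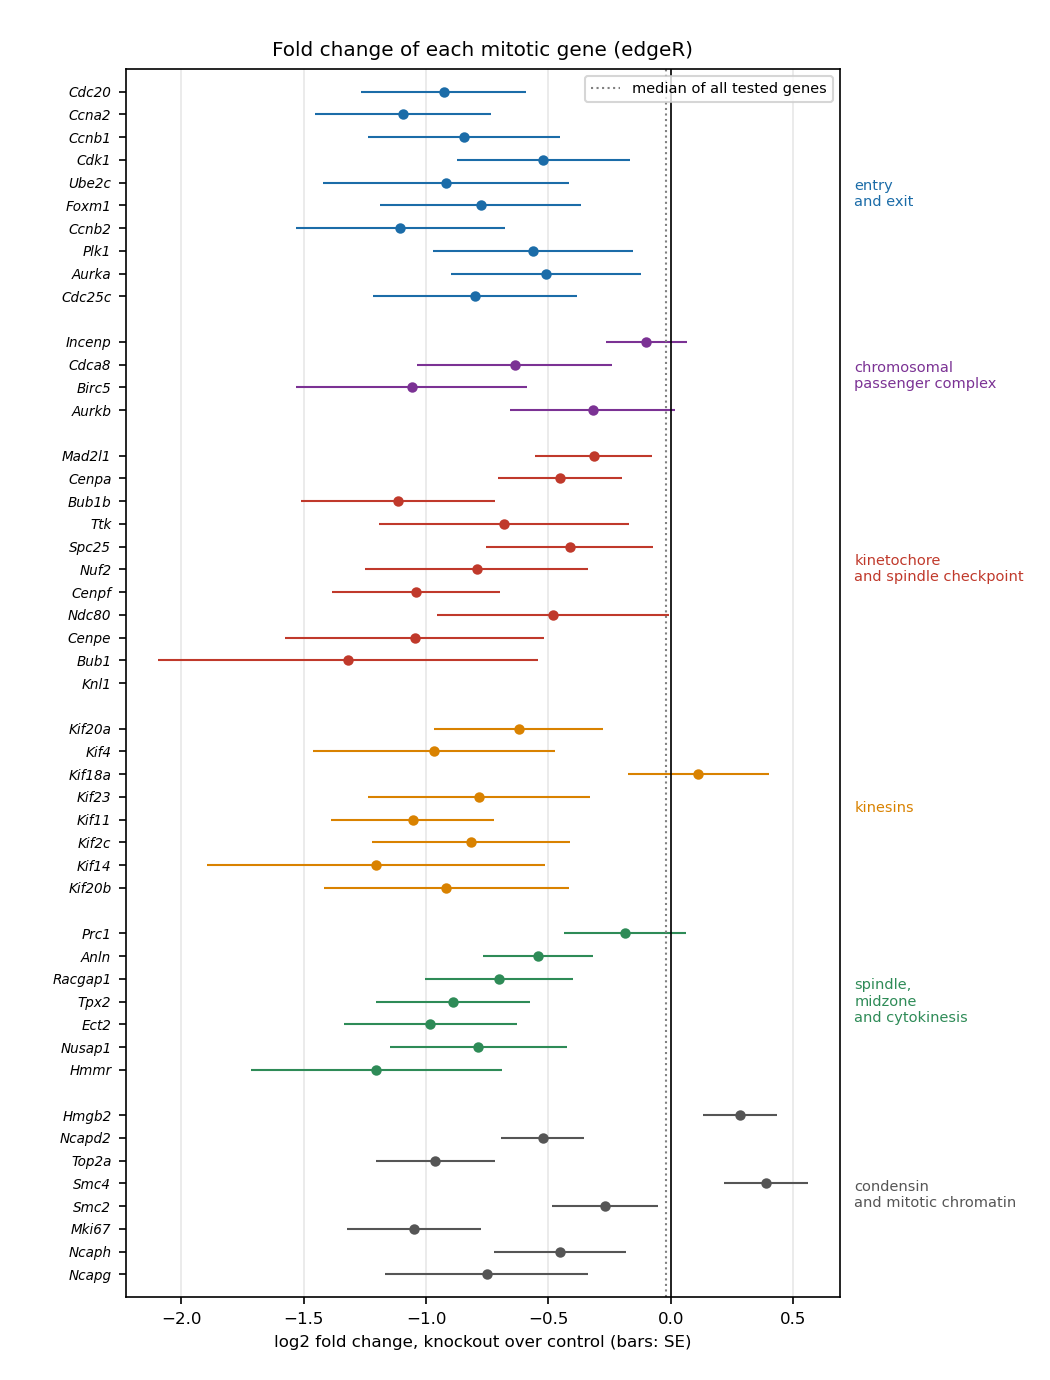
Log2 fold change of knockout over control for the 47 tested mitotic genes, in the same order as the plot of levels; points are edgeR estimates, bars are 1 standard error, the solid line is 0 and the dotted line the median of all tested genes (-0.02). Points of 44 genes lie left of 0, and Smc4, Hmgb2 and Kif18a lie right of it.

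The 8 mitotic kinesins had a median of -0.87, and none passed (lowest edgeR adjusted p = 0.43). Differences between the groups' medians were not tested. Of the 8, 7 had a value below 0, against 52.5% of all tested genes, and both knockouts lay below both controls for 6, against 23.6%. Kif11 (Eg5), the motor that pushes the spindle poles apart, had the smallest p, with 40 and 36 counts in knockouts 1 and 2, against 70 and 96 in controls 1 and 2. Its level was 1.84 and 1.72 CPM in knockouts 1 and 2, against 4.19 and 3.25 CPM in controls 1 and 2, and its log2 fold change -1.05 ± 0.33 (SE). The groups were apart and the knockouts nearly equal. Kif2c (MCAK), which takes microtubules apart at centromeres, measured 1.01 and 1.63 CPM in knockouts 1 and 2, against 2.10 and 2.54 CPM in controls 1 and 2, a log2 fold change of -0.82 ± 0.40 (SE). Kif20a, a midzone motor that carries the passenger complex, was the most abundant kinesin at 3.999 and 3.64 CPM in knockouts 1 and 2, against 7.48 and 4.37 CPM in controls 1 and 2 (log2 fold change -0.62 ± 0.34, SE). Both knockouts were below both controls, but close to control 2, and without control 1 the value was -0.19. Kif18a, which damps chromosome movements at plus ends, was the exception, at 3.49 and 4.02 CPM in knockouts 1 and 2, against 3.35 and 3.59 CPM in controls 1 and 2, with a log2 fold change of 0.11 ± 0.29 (SE). All 4 Kif18a libraries lay close together with the groups overlapping. Kif14, a motor of the late midzone, had 24 and 5 counts in knockouts 1 and 2, against 21 and 54 in controls 1 and 2, with knockout 2 the lowest and a log2 fold change of -1.20 ± 0.69 (SE). It was -2.68 without knockout 1 and -0.50 without knockout 2. The remaining motors were Kif20b, Kif23, a centralspindlin subunit, and the chromokinesin Kif4, at -0.92, -0.78 and -0.97. Kif4 overlapped between the groups.

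Of the 7 spindle, midzone and cytokinesis genes all were below 0, with a median of -0.79, or -0.42 without control 1 with 6 of 7 below 0. None passed (lowest edgeR adjusted p = 0.431). Tpx2, which activates Aurora A on spindle microtubules, had the smallest p, at 4.09 and 3.07 CPM in knockouts 1 and 2, against 7.78 and 5.55 CPM in controls 1 and 2, with a log2 fold change of -0.89 ± 0.31 (SE). Ect2, the exchange factor that activates RhoA at the furrow, measured 4.27 and 2.35 CPM in knockouts 1 and 2, against 6.64 and 6.47 CPM in controls 1 and 2, a log2 fold change of -0.98 ± 0.35 (SE). For both genes the groups were apart, and the controls of Ect2 were nearly equal. Racgap1, the centralspindlin subunit that recruits ECT2, gave -0.70. Anln (anillin), the scaffold of the contractile ring, gave -0.54. Prc1, the bundler of midzone microtubules, was the most abundant, at 9.61 and 10.1 CPM in knockouts 1 and 2, against 13.3 and 9.18 CPM in controls 1 and 2, and had the value nearest to 0, -0.19 ± 0.25 (SE). Knockouts and control 2 had like levels of Prc1 and control 1 was higher; without control 1 its value was 0.10. Nusap1, a microtubule-binding protein at chromosomes, gave -0.79. Hmmr, a spindle assembly factor, had 21 and 17 counts in knockouts 1 and 2, against 48 and 39 in controls 1 and 2, and gave -1.20 ± 0.51 (SE). Scaled for library size it measured 0.965 and 0.814 CPM in knockouts 1 and 2, against 2.87 and 1.32 CPM in controls 1 and 2. Without control 1 its value was -0.56.

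The condensin and chromatin group had the highest median level per length and held 2 of the 3 members above 0. Its 8 genes had a median of -0.49, with 6 below 0 and 2 above. Both knockouts lay below both controls for 6 and above both for 2, against 23.6% and 21.3% of all tested genes. None passed in edgeR (lowest adjusted p = 0.43). Top2a (ENSMUSG00000020914, chromosome 11, 98992943 to 99024189, GRCm38), the topoisomerase that untangles sister chromatids, had the smallest p of all 48 members, with 291 and 209 counts in knockouts 1 and 2, against 444 and 564 in controls 1 and 2. Its level was 13.4 and 10.01 CPM in knockouts 1 and 2, against 26.6 and 19.1 CPM in controls 1 and 2, a log2 fold change of -0.96 ± 0.24 (SE). With the replicate number as a block, edgeR's adjusted p for Top2a was 0.0382, and DESeq2 gave 0.0926. Both knockouts were below both controls. Mki67 (ENSMUSG00000031004, chromosome 7, 135689784 to 135716361, GRCm38), which coats mitotic chromosomes and is the usual marker of cycling cells, had 97 and 86 counts in knockouts 1 and 2, against 172 and 222 in controls 1 and 2. This was 4.46 and 4.12 CPM in knockouts 1 and 2, against 10.3 and 7.52 CPM in controls 1 and 2, a log2 fold change of -1.05 ± 0.27 (SE). Its 2 knockouts were closer together than its 2 controls, and both were lower.

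Condensin subunits had values on both sides of 0. Smc2 and Smc4 are the 2 ATPase arms of every condensin complex, and Ncapd2, Ncapg and Ncaph are the condensin I subunits that complete it. Ncapd2 measured 18.3 and 16.6 CPM in knockouts 1 and 2, against 27.4 and 22.9 CPM in controls 1 and 2 (log2 fold change -0.52 ± 0.17, SE). Ncaph measured 3.999 and 4.69 CPM in knockouts 1 and 2, against 6.41 and 5.52 CPM in controls 1 and 2 (log2 fold change -0.45 ± 0.27, SE), and Ncapg, at 1.79 and 1.01 CPM in knockouts 1 and 2, against 2.39 and 2.34 CPM in controls 1 and 2, gave -0.75 ± 0.41 (SE). Both knockouts were below both controls in each. Smc2 measured 7.81 and 7.09 CPM in knockouts 1 and 2, against 9.04 and 8.94 CPM in controls 1 and 2, a log2 fold change of -0.27 ± 0.22 (SE). Smc4 was on the other side, at 18.6 and 19.2 CPM in knockouts 1 and 2, against 15.4 and 13.5 CPM in controls 1 and 2, with both knockouts above both controls. Its log2 fold change, 0.39 ± 0.17 (SE), had an edgeR adjusted p of 0.474. Counts of Smc4 per exon length, relative to those of Smc2 in the same library, were 2.50 and 2.85 in knockouts 1 and 2, against 1.79 and 1.59 in controls 1 and 2. This ratio does not depend on library scaling, and the groups did not overlap. It was chosen after the values were seen and was not tested. With 2 libraries against 2 an exact permutation test cannot reach 0.05, its smallest two-sided p being 0.333. Hmgb2, a DNA-bending chromatin protein that dividing cells express but which is also present outside mitosis, measured 102 and 126 CPM in knockouts 1 and 2, against 100.2 and 87.4 CPM in controls 1 and 2. The edgeR adjusted p was 0.527 for a log2 fold change of 0.28 ± 0.15 (SE), with both knockouts above both controls by a narrow margin between knockout 1 and control 1. Hmgb2 and Smc4 kept a value above 0 in each of the 12 refits, and so did Kif18a.

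**Figure D3:**
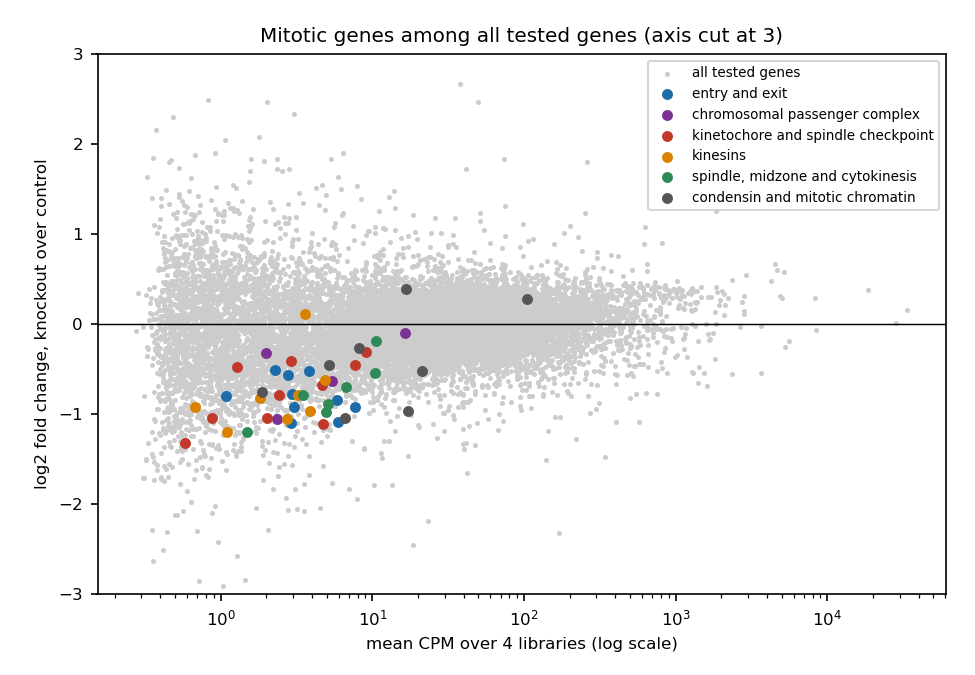
Log2 fold change of knockout over control against mean level (CPM over the 4 libraries, log axis) for all 14259 tested genes (grey) and the mitotic genes coloured by role; 9 grey genes beyond 3 in either direction are not drawn. The coloured points under 10 CPM lie below 0 apart from Kif18a, and the 2 highest dark points, Hmgb2 at the right and Smc4 at its left, lie above 0.

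Low level and long exons both went with values below 0 across the whole table, and the members have both. Of 3472 tested genes with a mean of 1 to 10 CPM, 60.8% were below 0, with a median of -0.13, and 27.3% had both knockouts below both controls. The 37 members in that range had a median of -0.79, with 36 below 0 and 30 below both controls. The members' median exon length was 5210 bases, against 4180 bases for all tested genes. Across all tested genes exon length and log2 fold change had a Spearman correlation of -0.25, a description over genes that share the same 4 libraries. After removal of a trend on length and GC content, the members' median was -0.73 and 44 of 47 were still below 0. The library kit keeps strand, but the strand setting used in counting is not given, and exons of 12 members overlap a gene on the other strand; in 7 of these the partner had more counts, as Cdc23 over Kif20a and Exosc9 over Ccna2. The 35 tested members with no such overlap had a median of -0.78, with 33 below 0.

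Mitotic genes outside the 48 had values nearer to 0. Over 131 tested genes of 7 further mitotic lists, 81 were below 0 with a median of -0.11, and both knockouts lay below both controls for 41, against 23.6% of all tested genes. None passed in edgeR; at an unadjusted p under 0.05, 11 were lower and 2 higher, against 5.94% and 4.8% of all tested genes. Other mitotic kinesins (6 tested) had a median of -0.61. In that list Kif18b, which shortens astral microtubules, measured 0.873 and 0.527 CPM in knockouts, against 1.98 and 1.79 CPM in controls (log2 fold change -1.42 ± 0.44, SE), and Kif24, a centriolar kinesin, 0.506 and 0.814 CPM in knockouts, against 1.62 and 1.86 CPM in controls (log2 fold change -1.40 ± 0.45, SE). Kif2a, the highest in CPM, measured 20.5 and 22.7 CPM in knockouts, against 20.4 and 19.2 CPM in controls (log2 fold change 0.13 ± 0.16, SE). The first 2 had both knockouts below both controls and Kif2a had both above. By contrast 24 tested cargo kinesins and light chains, which carry vesicles outside mitosis, had a median of -0.092, with 13 below 0. In this list Klc3 gave 0.58 ± 0.18, Kif13a -0.41 ± 0.15 and Kif1c 0.11 ± 0.16.

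Spindle, centrosome and cytokinesis genes outside the 48 (22 tested, 18 below 0) had a median of -0.32. Aspm, a spindle pole protein, measured 1.70 and 1.25 CPM in knockouts, against 5.33 and 3.49 CPM in controls (log2 fold change -1.57 ± 0.38, SE), the lowest p in that list. Cep192, a centrosome scaffold, gave -0.66 ± 0.22 and the spindle pole protein Numa1 -0.13 ± 0.12. Of 32 further kinetochore and centromere genes, 20 were below 0 and the median was -0.11. Kntc1 (ROD), which carries checkpoint proteins to kinetochores, measured 0.735 and 1.01 CPM in knockouts, against 3.71 and 2.17 CPM in controls (log2 fold change -1.74 ± 0.45, SE), and Cenpu, of the inner kinetochore, 0.644 and 0.718 CPM in knockouts, against 1.74 and 1.29 CPM in controls (log2 fold change -1.13 ± 0.44, SE). Hjurp, the chaperone of CENP-A, had the highest CPM of that list, at 101 and 123 CPM in knockouts, against 141 and 121 CPM in controls (log2 fold change -0.22 ± 0.15, SE), with overlapping groups. Condensin II and cohesin (16 tested, 10 below 0) had a median of -0.21, or -0.05 after removal of the trend on length and GC content. Its condensin II kleisin subunit Ncaph2 measured 229.7 and 232 CPM in knockouts, against 194 and 181 CPM in controls (log2 fold change 0.30 ± 0.12, SE), both knockouts above both controls, and the cohesin regulator Pds5b gave -0.50 ± 0.18.

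The remaining lists of regulators had medians nearer to 0. Of 20 other mitotic kinases and regulators 9 were below 0, with a median of 0.008. Cdca3 and Cdca2 gave -0.73 ± 0.31 and -0.88 ± 0.41, and the phosphatase Cdc25b measured 165 and 155 CPM in knockouts, against 136 and 148 CPM in controls (log2 fold change 0.17 ± 0.12, SE). The anaphase-promoting complex, which is present throughout the cycle, had 6 of 16 below 0 and a median of 0.085. Its subunits Anapc1, Cdc26 and Anapc5 gave -0.46 ± 0.11, 0.37 ± 0.12 and -0.11 ± 0.13. Of 19 genes in a list of MuvB, DREAM and B-MYB subunits with further E2F and pocket protein genes, 13 were below 0 with a median of -0.046. In that list the transcription factor E2f2 measured 5.75 and 4.17 CPM in knockouts, against 12.8 and 7.55 CPM in controls (log2 fold change -1.03 ± 0.34, SE), Mybl2 (B-MYB), which activates mitotic genes with MuvB, 0.781 and 1.25 CPM in knockouts, against 2.63 and 2.03 CPM in controls (log2 fold change -1.19 ± 0.42, SE), and the histone chaperone Rbbp4 239.7 and 242 CPM in knockouts, against 191 and 216 CPM in controls (log2 fold change 0.24 ± 0.12, SE). The first 2 had both knockouts below both controls and Rbbp4 had both above. Replication and S phase genes (32 tested, 19 below 0) had a median of -0.15, with Mcm10 at -1.53 ± 0.45, Uhrf1 at -0.92 ± 0.29 and Pcna at 0.15 ± 0.13. None of the genes in these lists passed in edgeR. Without a count filter edgeR called Kntc1, Aspm, E2f2 and Uhrf1 lower and Klc3 higher, where 1.11% of all genes were called lower and 0.678% higher. Whether these lists differ from the 48 was not tested.

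**Figure D4:**
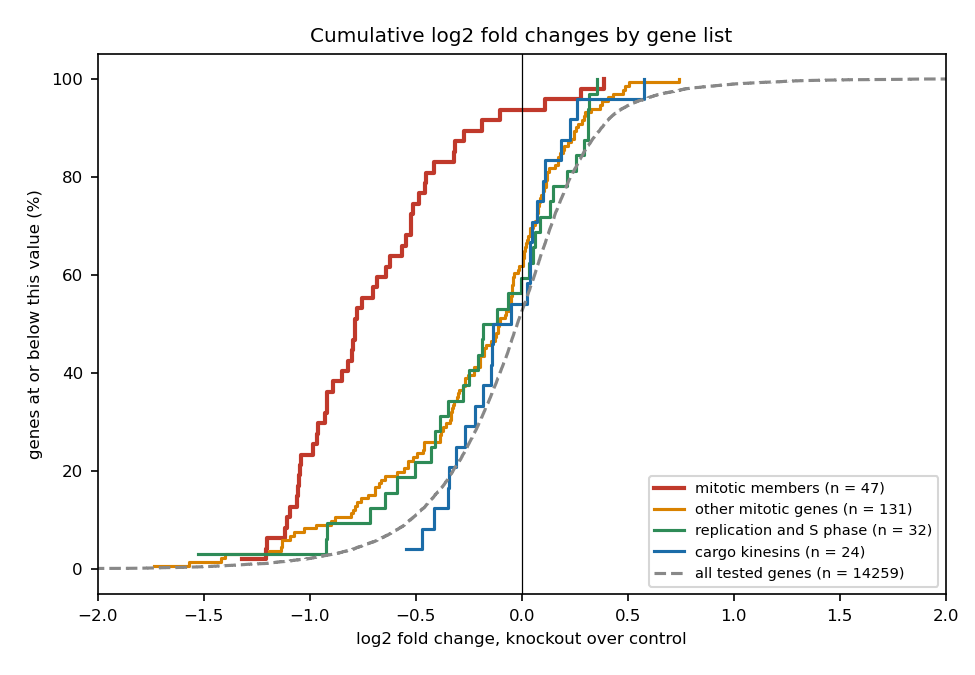
Cumulative share of genes (%) at or below each log2 fold change of knockout over control, for the 47 tested members, 131 other mitotic genes, 32 replication and S phase genes, 24 cargo kinesins and all 14259 tested genes (dashed; the axis ends at 2). The curve of the members crosses 0 at 93.6%, against 61.8% for the other mitotic genes and 52.5% for all tested genes.

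By their median level the libraries ranked, low to high, knockout 2, knockout 1, control 2 and control 1. Relative to each gene's own mean log2 CPM, the members' medians were -0.19 and -0.52 in knockouts 1 and 2, against 0.60 and 0.09 in controls 1 and 2. Knockout 1 exceeded knockout 2 in 34 of the 47 members, and control 1 exceeded control 2 in 41. The summed level of interfollicular differentiation markers was likewise higher in replicate 1 than in replicate 2 of each group. All 12 of these markers were tested. They summed to 9645 and 4738 CPM in knockouts 1 and 2, against 13876 and 5842 CPM in controls 1 and 2. The groups overlapped for all 12, as for 7855 of all 14259 tested genes. Their median log2 fold change was -0.43, and all 12 were below 0, against 52.5% of all tested genes. None of the 12 passed in edgeR, and 1 was called lower without a count filter, where 1.11% of all genes were. The 12 markers' relative medians were 0.27 and -0.55 in knockouts and 0.96 and -0.60 in controls. The 13 sebaceous gland markers summed to 859 and 509 CPM in knockouts, against 1379 and 691 CPM in controls. Of these, 11 overlapped and 2 were below both controls, against 7855 and 3371 of all 14259 tested genes. The 13 markers' median log2 fold change was -0.66, and 12 were below 0, against 52.5% of all tested genes. None passed in edgeR, while DESeq2 called 2 lower, where it called 0.54% of all genes lower. With the replicate block edgeR called 3 lower, against 0.568% of all genes. Without a count filter it called 3 lower, against 1.11%. Mitotic genes and both marker lists were thus highest in control 1, and the part of other epidermal cells in the members' difference was not tested. Hair germ and matrix markers, a population that divides early in hair growth, summed to 378 and 433 CPM in knockouts, against 383 and 354 CPM in controls; of 9 tested 3 were below 0. Blood endothelial markers summed to 9.47 and 24.5 CPM in knockouts, against 31.0 and 11.96 CPM in controls. Fibroblast markers summed to 356 and 329 CPM in knockouts, against 369.6 and 441 CPM in controls, with Twist2 at 0 in all libraries. Melanocyte markers summed to 86.4 and 90.6 CPM in knockouts and to 114 and 135 CPM in controls. T cell markers summed to 49.0 and 36.3 CPM in knockouts and 36.3 and 35.8 CPM in controls, and macrophage and Langerhans cell markers to 232 and 289.6 CPM in knockouts and 221 and 202.5 CPM in controls.

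**Figure D5:**
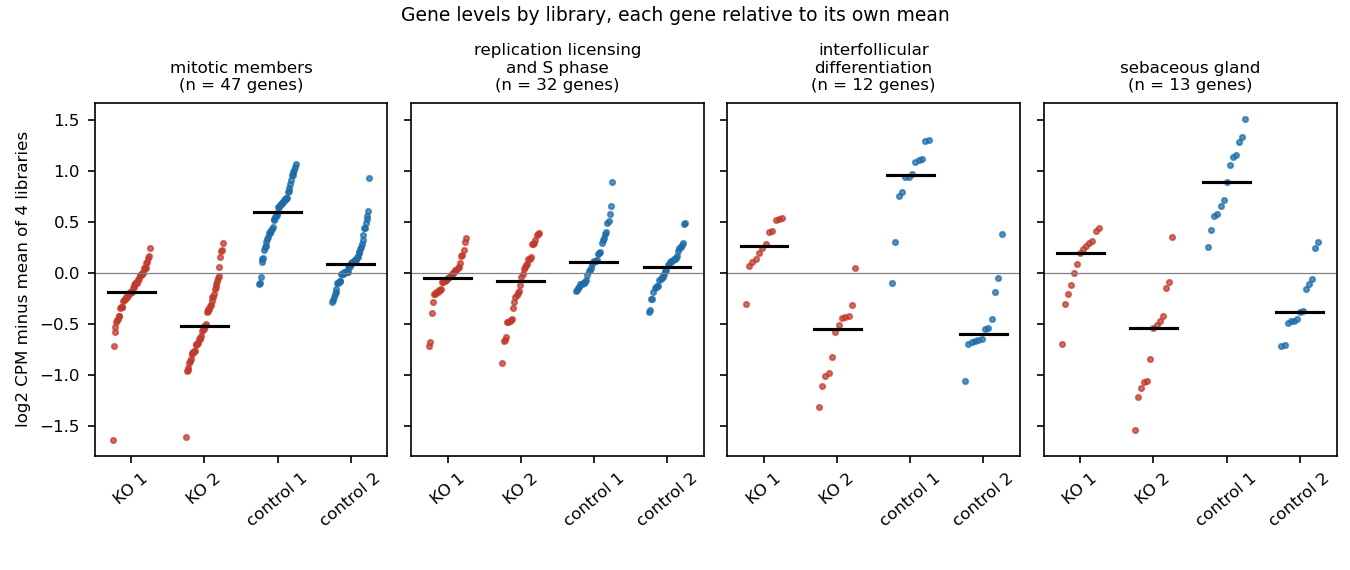
Log2 CPM of each tested gene minus its mean over the 4 libraries, for the 47 mitotic members, 32 replication and S phase genes, 12 interfollicular differentiation genes and 13 sebaceous gland genes; KO is knockout, points are genes sorted by value and black bars are medians. The members' bars lie at -0.19 and -0.52 in knockouts 1 and 2, below those at 0.60 and 0.09 in controls 1 and 2, whereas the differentiation bars are high in replicate 1 of each group.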

How the data were processed

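Bulge cell RNA from 2 knockout and 2 control samples was made into directional, polyA-enriched libraries, per the labels' protocols. The tools named are STAR 2.7.0e, Trim Galore 0.6.0, cutadapt, FastQC and DESeq2 1.26.0, with build GRCm38 (mm10), per the submitters' processing notes. Which program counted reads, with which strand setting and gene annotation, is not stated in any source used here. The authors deposited whole-number counts for 55536 Ensembl genes, not normalized. All IDs matched GENCODE M21 (GRCm38).

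Counts were tested with edgeR 4.0.16 (R 4.3.3) by the robust quasi-likelihood test with TMM factors after filterByExpr, which kept 14259 genes; p-values were adjusted by Benjamini-Hochberg and called at 0.05. Errors are standard errors of log2 fold changes, derived from the edgeR test and not estimated separately. Each is the absolute log2 fold change divided by the square root of the quasi-likelihood F statistic. RPKM divides CPM by total exon length. Alternatives were RLE and upper-quartile factors, no filter, at least 50 counts in 2 libraries, DESeq2 1.42.0, limma-voom 3.58.1, a replicate block, each library left out, and a length and GC trend removed. Members without an opposite-strand exon overlap were added after the data were seen. Counts of simulated libraries were tested the same way, with 14259 genes. The test called 4% of those changed 1.5-fold and 60% of those changed 2-fold, then 94% at 4-fold and 100% at 8-fold. Of its 149 calls 20 were false, a larger share than the 0.05 aimed at. Recovery was not split by level. The members' median was 3.80 CPM, against 22.2 CPM for all tested genes, so these rates do not give the members' recovery.

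Replicates of a group differed beyond counting noise, with a chi-square per degree of freedom of 41.9 in knockouts and 31.6 in controls, so none is a duplicate. Every member was open to naming. Values per library are given, in each role, for the most abundant gene, the 2 of smallest p, the highest log2 fold change, and Mki67, Top2a, Ccnb1, Cdk1, Ncapd2 and Hmgb2. Other values per library were chosen after they were seen. In the other mitotic lists the 2 genes of smallest p and the most abundant one are named. The members and all lists were chosen with earlier results of these data known.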

Additional observations from a re-analysis of the deposited data

How the results depend on the processing

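The members' median log2 fold change of -0.78 lay between -0.80 and -0.70 under the other scalings, filters and tools and after the trend on length and GC content was removed, and between -0.95 and -0.39 with 1 library left out. With 1 library left out, the medians ran between -1.15 and -0.45 for cyclins, kinases and exit factors, -0.63 and -0.29 for the passenger complex, -1.07 and -0.35 for kinetochore genes, -1.15 and -0.60 for kinesins, -0.98 and -0.42 for spindle genes, and -0.58 and -0.36 for condensin and chromatin genes. A group left with 1 library was assumed to vary like the other group. Without control 1, Ttk and Prc1 turned to 0.026 and 0.10, in ranges down to -1.24 and -0.42; the cause was not tested. Genes past the threshold numbered 1 in all, 430 without a count filter, 101 with DESeq2, and 1 to 21 with 1 library left out. Members past it numbered 0, 3 without a filter, and 0 with any library left out. The kinesins' median was the lowest of the 6 groups in the fit as reported, but not with at least 50 counts in 2 libraries (-0.80, against -0.86 for cyclins and kinases), without knockout 2 (-0.60, against -0.62 for spindle genes) or without control 2 (-0.91, against -1.07 for kinetochore genes). Counting error was above 0.5 of the fitted standard error in 15 of 47 members.

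With the replicate number as a block, 106 genes and 1 member (Top2a) passed. The replicate 1 minus replicate 2 differences of the groups correlated at 0.122 over all tested genes. With only 2 pairs this cannot decide whether the numbers pair the samples.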
